A study of Mus musculus with 6 samples.

Results

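The angiopoietin and VEGF gene set comprised 10 genes of the 49315 in the count table, taken by gene name: the ligands Angpt1, Angpt2, Vegfa, Vegfc and Pgf, the receptors Tek, Tie1, Kdr and Flt1, and the co-receptor Nrp1. The set was chosen by name with its counts and log2 ratios in all 6 libraries known, among them a lower Angpt1 after bleomycin (BLM), so the values below describe them and test nothing. RNA came from lung cells of male C57BL/6J mice (C57BL/6 in the labels) that had received either sterile saline (sham, the controls) or BLM by oropharyngeal instillation, 21 days before harvest. All groups shared this strain and route, the labels name no genetic change, and the age of these mice is not given in the sources used here. From each treatment there was an unsorted single-cell suspension, a fraction depleted of cells with Lamp1 on the surface and a fraction enriched for them. Cells of 2 to 3 lungs were pooled per tube, with 1 library for each of the 6 conditions, so no p-value can be given and animals cannot be told apart.

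Angiopoietins and VEGFs are secreted proteins that act on receptor tyrosine kinases of endothelial cells, the cells that line vessels. Angpt1, made chiefly by pericytes and other cells around the vessel, activates Tek (also called Tie2) and keeps the endothelium quiescent and tight, whereas Angpt2, stored and released by endothelial cells themselves, often opposes it. Tie1 is the sister receptor of Tek and binds no angiopoietin on its own. Vegfa drives endothelial growth and permeability through Kdr (VEGFR2), Flt1 (VEGFR1) binds Vegfa tightly with weaker signalling and can act as a decoy, Pgf binds Flt1 but not Kdr and can also bind Nrp1, Vegfc acts mainly on lymphatic endothelium through Flt4 and can also bind Kdr, and Nrp1 is a co-receptor that strengthens Vegfa binding to Kdr. In the lung, alveolar type 1 cells are a known source of Vegfa, and the capillary endothelium is its main target.

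The genes lie on 6 chromosomes of GRCm38 (GENCODE M21 positions). Angpt1 is at chr15:42424723-42676977 and Angpt2 at chr8:18690263-18741562, both on the minus strand. Vegfa is at chr17:46016993-46032369 (minus), Vegfc at chr8:54077606-54187096 (plus) and Pgf at chr12:85166635-85177790 (minus). Tek is at chr4:94739289-94874976 (plus), Tie1 at chr4:118471191-118490061 (minus), Kdr at chr5:75932827-75978458 (minus), Flt1 at chr5:147561604-147726011 (minus) and Nrp1 at chr8:128358604-128503363 (plus). All 10 are protein coding, and a value is the number of reads assigned to the whole gene, with no split by transcript or exon. Angpt1 shares 737 exon bases with Gm17473 on the opposite strand. The strand setting of the counting is not given in the sources used here, so reads of these 2 genes cannot be told apart there, and Gm17473 itself had between 1 and 44 reads. Angpt2 lies inside Mcph1 on the opposite strand with 0 shared exon bases, and Nrp1 contains Mir1903 (80 shared bases, 0 reads in all 6 libraries).

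The 4 endothelial receptor genes are shown by the 250 bases before their RefSeq start sites (GRCm38.p6, 5' to 3' along the gene's strand), because they were high together in the same libraries and ETS factors, which bind GGAA, are the textbook regulators of endothelial genes. Capitals mark GGAA or its reverse complement TTCC. RefSeq promoters were matched for 8 of the 10 genes, all but Angpt1 and Angpt2. The windows are chr4:94739039-94739288 (plus) for Tek, chr4:118489850-118490099 (minus) for Tie1, chr5:75978456-75978705 (minus) for Kdr and chr5:147726012-147726261 (minus) for Flt1.
Tek: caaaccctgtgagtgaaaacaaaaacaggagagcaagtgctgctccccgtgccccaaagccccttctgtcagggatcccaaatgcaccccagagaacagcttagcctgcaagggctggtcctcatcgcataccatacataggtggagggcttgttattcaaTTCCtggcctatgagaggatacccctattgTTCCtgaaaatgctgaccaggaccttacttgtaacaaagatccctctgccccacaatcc
Tie1: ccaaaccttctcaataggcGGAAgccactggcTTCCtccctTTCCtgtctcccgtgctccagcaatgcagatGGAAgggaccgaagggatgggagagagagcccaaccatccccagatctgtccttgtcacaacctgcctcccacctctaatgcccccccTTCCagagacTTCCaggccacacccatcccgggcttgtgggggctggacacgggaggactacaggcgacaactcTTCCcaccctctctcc
Kdr: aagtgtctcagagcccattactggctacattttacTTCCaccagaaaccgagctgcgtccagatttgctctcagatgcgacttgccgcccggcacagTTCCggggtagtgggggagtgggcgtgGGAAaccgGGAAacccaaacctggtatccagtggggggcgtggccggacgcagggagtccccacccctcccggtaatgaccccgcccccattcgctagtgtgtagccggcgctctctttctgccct
Flt1: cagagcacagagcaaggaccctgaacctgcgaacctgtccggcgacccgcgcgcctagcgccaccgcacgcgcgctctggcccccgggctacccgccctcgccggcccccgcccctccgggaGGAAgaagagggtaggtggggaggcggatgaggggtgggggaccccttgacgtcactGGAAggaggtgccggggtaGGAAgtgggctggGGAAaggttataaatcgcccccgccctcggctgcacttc
Tek held 2 matches, Tie1 held 7, and Kdr and Flt1 held 4 each. Of 32851 windows of the same length in the reference, 93.5% held at least 1 match, 33.4% held 4 or more, and 3.82% held 7 or more. A short motif of this kind is therefore common, and of the 4 windows shown that of Tie1 held an uncommon number. Nrp1 held 4, the 2 Vegfa start sites 6 and 2, Vegfc 1, and both Pgf start sites 0. The hypoxia response core ACGTG (either strand), present in 16.6% of windows, was found in 1 window of the gene set, that of the inner Vegfa start site. That window (chr17:46025164-46025413) lies inside the Vegfa gene itself and not before it. A match describes the letters and is not a bound site.

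Before the results, features of the libraries bear on every value. Totals ran from 30236120 to 52918696 reads. In the BLM Lamp1-depleted library 38.4% of reads fell on 1 transcript, Gm26917, against 0.884% to 7.10% in the other 5. It left 18636423 reads for other genes, and the edgeR TMM factor that scales for such imbalance was 0.699, against 0.993 to 1.19 elsewhere. Every value that uses this library rests on that scaling. Levels below are TMM-scaled CPM, reads of a gene per 1000000 reads. Lamp1 RNA was at 319 CPM in unsorted, 146 in depleted and 491 in enriched sham cells, and at 501, 111 and 378 CPM in BLM cells, higher in enriched than in depleted cells of both treatments. The sorted fractions also differed in cell types. Ptprc (CD45, on all white blood cells) was 2593 and 1267 CPM in the depleted libraries of sham and BLM mice and 202 and 173 CPM in the enriched ones, while Pecam1, an endothelial adhesion molecule, was 400 and 340 CPM against 1908 and 2009 CPM. In these bulk libraries fewer cells of a type and less RNA per cell cannot be told apart.

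**Figure D1:**
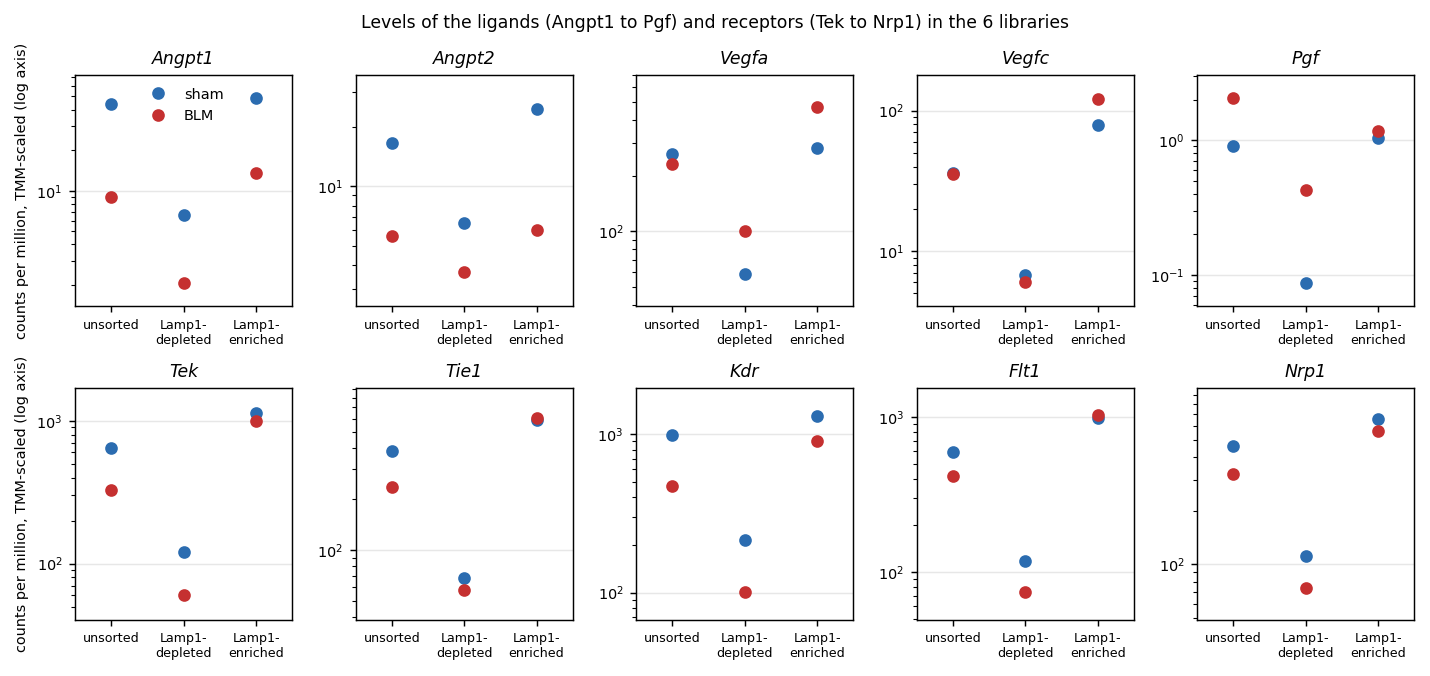
Levels of the 10 genes in the 6 libraries, as TMM-scaled CPM on a log axis that differs between panels, with sham in blue and BLM in red and 1 point per library. Angpt1 and Angpt2 were lower in BLM than in sham cells of all 3 fractions, and each gene was lowest in a Lamp1-depleted library.

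Angpt1 was lower after BLM in all 3 fractions. It had 2144 reads in unsorted, 299 in depleted and 2229 in enriched sham cells, and 354, 44 and 737 reads in BLM cells in the same order. Scaled, these were 44.2, 6.56 and 48.4 CPM in sham and 8.97, 2.08 and 13.5 CPM in BLM cells. The BLM library was 4.92-fold lower in unsorted cells, 3.14-fold lower in Lamp1-depleted cells and 3.58-fold lower in Lamp1-enriched cells. As log2 ratios of BLM over sham these were -2.30 (-2.47 to -2.14), -1.65 (-2.15 to -1.19) and -1.84 (-1.96 to -1.72), where the brackets give the 95% counting interval of the ratio, which covers the sampling of reads and not the variation between mice. The sham enriched and unsorted libraries stood above all 3 BLM libraries, and only the sham depleted library lay below 2 of them. Of all genes with enough reads, 3.65% had a lower ratio in unsorted, 10.7% in depleted and 2.53% in enriched cells.

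Angpt2 was also lower in each BLM library than in its sham counterpart. It had 810 reads in unsorted, 296 in depleted and 1134 in enriched sham cells, and 221, 78 and 328 reads in BLM cells, that is, 16.7, 6.49 and 24.6 CPM in sham and 5.60, 3.69 and 6.02 CPM in BLM cells. The log2 ratio was -1.57 (-1.80 to -1.36) in unsorted, -0.81 (-1.19 to -0.45) in depleted and -2.03 (-2.22 to -1.86) in enriched cells, a 4.09-fold difference in the last. In order of level, the sham depleted, BLM enriched and BLM unsorted libraries followed each other by steps within counting error, and both sham libraries above them and the BLM depleted library below were apart from them, while the log2 ratio of enriched over unsorted BLM cells was 0.10 (-0.15 to 0.36).

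Within a library, the number of Angpt2 reads per Angpt1 read does not depend on scaling between libraries. The ratio was 0.378 in unsorted, 0.990 in depleted and 0.509 in enriched sham cells, and 0.624, 1.77 and 0.445 in BLM cells. In unsorted cells it was higher after BLM, with intervals of 0.348 to 0.410 and 0.525 to 0.741 that did not meet. In depleted cells it was higher too, with intervals of 0.840 to 1.17 in sham and 1.21 to 2.63 in BLM cells, the latter on 44 Angpt1 reads. In enriched cells the order was the other way round, and the intervals, 0.473 to 0.547 and 0.390 to 0.508, overlapped. The balance of these ligands thus did not differ one way in all fractions.

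Vegfa, the main vascular growth factor, differed in direction between fractions. It had 12713 reads in unsorted, 2686 in depleted and 12977 in enriched sham cells, and 9125, 2109 and 25555 reads in BLM cells. On the CPM scale it was at 262, 58.9 and 282 CPM in sham and 231, 99.8 and 469 CPM in BLM cells. BLM over sham was -0.18 (-0.22 to -0.14) in unsorted cells, close to the median of all genes there (-0.069), but 0.76 (0.68 to 0.84) in depleted and 0.73 (0.70 to 0.76) in enriched cells. With total counts alone the ratio in depleted cells was 0.041, so that the higher level there rests on the scaling, and with DESeq2 size factors it was 0.91. The BLM enriched library held the highest level of the 6, 1.66-fold that of sham enriched cells.

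Vegfc, the lymphatic growth factor, had its highest levels in Lamp1-enriched cells. There were 1752 reads in unsorted, 309 in depleted and 3613 in enriched sham cells, and 1385, 128 and 6566 reads in BLM cells, which gave 36.1, 6.78 and 78.5 CPM in sham and 35.1, 6.06 and 120.5 CPM in BLM cells. Both enriched libraries stood above the other 4, and BLM exceeded sham only there, by 1.53-fold (log2 0.62, 0.56 to 0.68). In unsorted and depleted cells the ratios were -0.04 (-0.14 to 0.063) and -0.16 (-0.47 to 0.14), with intervals that include 0.

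Pgf was near the limit of detection. It had 44 reads in unsorted, 4 in depleted and 48 in enriched sham cells, and 81, 9 and 64 reads in BLM cells, which is 0.906, 0.0877 and 1.04 CPM in sham and 2.05, 0.426 and 1.17 CPM in BLM cells. In unsorted cells it was 2.25-fold higher after BLM (log2 1.17, 0.63 to 1.74), the only gene of the set past 2-fold in that direction. Scaled by total counts alone its log2 ratio was 0.91, inside 2-fold. In enriched cells the ratio was 0.17 (-0.39 to 0.74), and in depleted cells 9 reads against 4 were under the minimum of 10 and are not counted.

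Among the receptors, Tek and Kdr were lower after BLM where cells were unsorted or Lamp1-depleted. Tek had 31514 reads in unsorted, 5503 in depleted and 52140 in enriched sham cells, and 13006, 1283 and 54236 reads in BLM cells, or 649, 121 and 1133 CPM in sham and 329.7, 60.7 and 995 CPM in BLM cells. Its log2 ratios were -0.98 (-1.01 to -0.95) and -0.99 (-1.08 to -0.90) in unsorted and depleted cells and -0.19 (-0.20 to -0.17) in enriched cells. Kdr had 47765 reads in unsorted, 9822 in depleted and 60172 in enriched sham cells, and 18606, 2139 and 49651 reads in BLM cells, or 984, 215 and 1308 CPM in sham and 472, 101 and 911 CPM in BLM cells. Its log2 ratios in the same order were -1.06 (-1.09 to -1.04), -1.09 (-1.16 to -1.02) and -0.52 (-0.54 to -0.50). Of the 4 receptors and Nrp1, Kdr was the gene with the lowest BLM over sham ratio in each of the 3 fractions, although its interval met that of Tek in depleted cells. In unsorted and depleted cells Tek lay just inside and Kdr just outside the 2-fold line, and the side depends on the scaling. With DESeq2 size factors Kdr was at -0.94 in depleted cells, inside 2-fold, and with total counts alone Tek was at -1.24 in unsorted and -1.71 in depleted cells, past it.

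Tie1 and Flt1 differed less. Tie1 had 18714 reads in unsorted, 3131 in depleted and 26925 in enriched sham cells, and 9365, 1225 and 33203 reads in BLM cells, or 385, 68.7 and 585 CPM in sham and 237, 58.0 and 609 CPM in BLM cells. The log2 ratios of Tie1 were -0.70 (-0.74 to -0.66), -0.24 (-0.34 to -0.15) and 0.058 (0.035 to 0.081). Flt1 had 28849 reads in unsorted, 5363 in depleted and 45187 in enriched sham cells, and 16309, 1559 and 55956 reads in BLM cells, or 594, 118 and 982 CPM in sham and 413, 73.8 and 1027 CPM in BLM cells. The log2 ratios of Flt1 were -0.52 (-0.55 to -0.50), -0.67 (-0.75 to -0.59) and 0.064 (0.046 to 0.082). For both, the enriched libraries of sham and BLM mice were nearly level, and the intervals there are narrow because they rest on 26925 to 55956 reads a library. The co-receptor Nrp1 had 22597 reads in unsorted, 5064 in depleted and 30255 in enriched sham cells, and 12651, 1545 and 30840 reads in BLM cells, or 465, 111 and 658 CPM in sham and 321, 73.1 and 566 CPM in BLM cells. The log2 ratios of Nrp1 were -0.54 (-0.57 to -0.51), -0.60 (-0.69 to -0.52) and -0.22 (-0.24 to -0.19).

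Per kilobase of exon, which allows genes to be compared, the Tek level was the highest of the set in 5 of the 6 libraries. In sham unsorted cells Tek was at 138, Kdr at 109, Tie1 at 78.4, Vegfa at 61.1, Angpt1 at 8.48, Angpt2 at 4.52 and Pgf at 0.312 CPM per kilobase. The exception was BLM Lamp1-depleted cells, where Vegfa (23.3) stood above Tek (12.9 CPM per kilobase). Each of the 4 receptors stood above both angiopoietins on this scale in all 6 libraries.

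**Figure D2:**
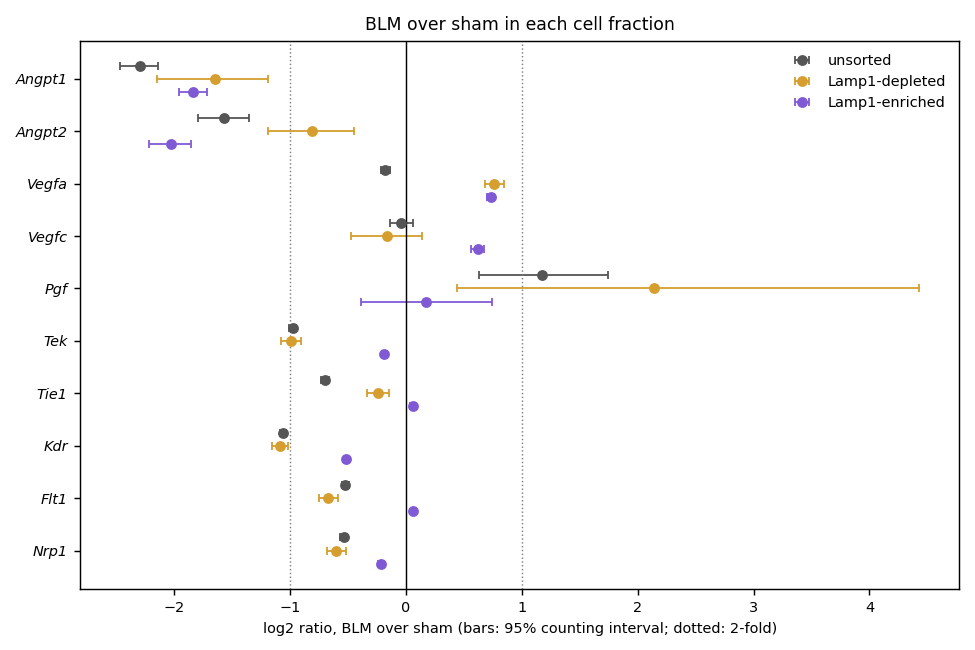
Log2 ratio of BLM over sham for each gene in unsorted (grey), Lamp1-depleted (yellow) and Lamp1-enriched (purple) cells, with bars for the 95% counting interval and dotted lines at 2-fold. Angpt1 lay left of the 2-fold line in all 3 fractions. The Pgf point in depleted cells rests on 9 and 4 reads and is not counted.

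Counts past 2-fold are given beside those of all genes. In unsorted cells 3 of 10 genes were lower (Angpt1, Angpt2, Kdr) and 1 higher (Pgf), where 16.0% of 22772 genes were lower and 13.9% higher, and the median was -0.62 for the set and -0.069 for all genes. In depleted cells 2 of 9 were lower (Angpt1, Kdr) and 0 higher, against 22.3% and 13.7% of 20852 genes, with medians of -0.67 and -0.21. In enriched cells 2 of 10 were lower (Angpt1, Angpt2) and 0 higher, against 7.81% and 10.2% of 21671 genes, with medians of -0.065 and -0.00026. These contrasts were known when the set was chosen, so nothing is read from the counts. Scaled by total counts alone, without TMM factors, 22.3% of all genes were lower and 10.7% higher in unsorted cells, and 46.9% lower and 6.80% higher in depleted cells, where 6 of 9 genes of the set were then lower. Angpt1 stayed below -1 in all 3 fractions under each alternative scaling, prior count and read minimum, with log2 ratios from -2.56 to -2.28 in unsorted, -2.37 to -1.50 in depleted and -1.95 to -1.83 in enriched cells.

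All 10 genes were higher in Lamp1-enriched than in Lamp1-depleted cells of both treatments. In sham cells all 10 were past 2-fold and 0 lower, beside 27.5% and 25.2% of 21867 genes. In BLM cells 9 of 10 were higher and 0 lower, all but Angpt2, beside 34.4% and 22.6% of 21838 genes (46.5% and 15.8% when scaled by total counts alone). The median of the set was 2.97 in sham and 3.06 in BLM cells, beside -0.013 and 0.29 for all genes. In sham cells the order from the top was Vegfc (11.6-fold), Pgf (10.6-fold, on 48 against 4 reads), Tek (9.39-fold), Tie1 (8.52-fold), Flt1 (8.35-fold), Angpt1 (7.37-fold), Kdr (6.07-fold), Nrp1 (5.92-fold), Vegfa (4.79-fold) and Angpt2 (3.79-fold). Intervals of neighbours in this order met, except between Tek and Tie1, Angpt1 and Kdr, Nrp1 and Vegfa, and Vegfa and Angpt2. In BLM cells it was Vegfc (19.8-fold), Tek (16.4-fold), Flt1 (13.9-fold), Tie1 (10.5-fold), Kdr (8.995-fold), Nrp1 (7.74-fold), Angpt1 (6.46-fold), Vegfa (4.70-fold), Pgf (2.71-fold) and Angpt2, and here neighbours from Tek down to Nrp1 were apart by more than counting error and the others were not. All 15 general endothelial markers described below were past 2-fold in the same direction, with medians of 3.18 in sham and 3.69 in BLM cells. All pericyte (medians 2.99 and 2.21), platelet (4.68 and 3.26) and alveolar type 1 genes (3.34 and 2.06) were past it too. Alveolar type 2 (2.30 and 1.90) and fibroblast genes (1.51 and 2.18) also had positive medians, and macrophage genes 0.0024 and 0.36. T cell (-4.38 and -4.43), B cell (-4.19 and -3.62) and neutrophil genes (-0.35 and -2.335) went the other way. The part of these cell types in the ratios of the 10 genes was not tested. These ratios were known when the set was chosen.

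The enriched over depleted ratio was not the same in both treatments. Between them the median of all genes differed by 0.31 (BLM minus sham), which is the level the differences of single genes are to be read against. The BLM minus sham difference of the log2 enrichment was 0.80 (0.71 to 0.89) for Tek, 0.78 (0.48 to 1.08) for Vegfc, 0.74 (0.65 to 0.82) for Flt1, 0.57 (0.50 to 0.64) for Kdr, 0.39 (0.30 to 0.47) for Nrp1 and 0.30 (0.20 to 0.40) for Tie1. Those of Tek, Vegfc, Flt1 and Kdr lay above the level of all genes by more than counting error, and those of Nrp1 and Tie1 did not. It was -0.028 (-0.12 to 0.06) for Vegfa and -0.19 (-0.66 to 0.28) for Angpt1, where the intervals include 0 and lie below the level of all genes. Angpt2 went the other way, at -1.22 (-1.62 to -0.82), as did Pgf, at -1.97 (-3.75 to -0.19) on few reads. Angpt2 was thus 3.79-fold higher in enriched than in depleted sham cells and 1.63-fold in BLM cells, where its log2 ratio ran from 0.55 to 1.26 over the alternatives and passed 2-fold with total counts only.

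**Figure D3:**
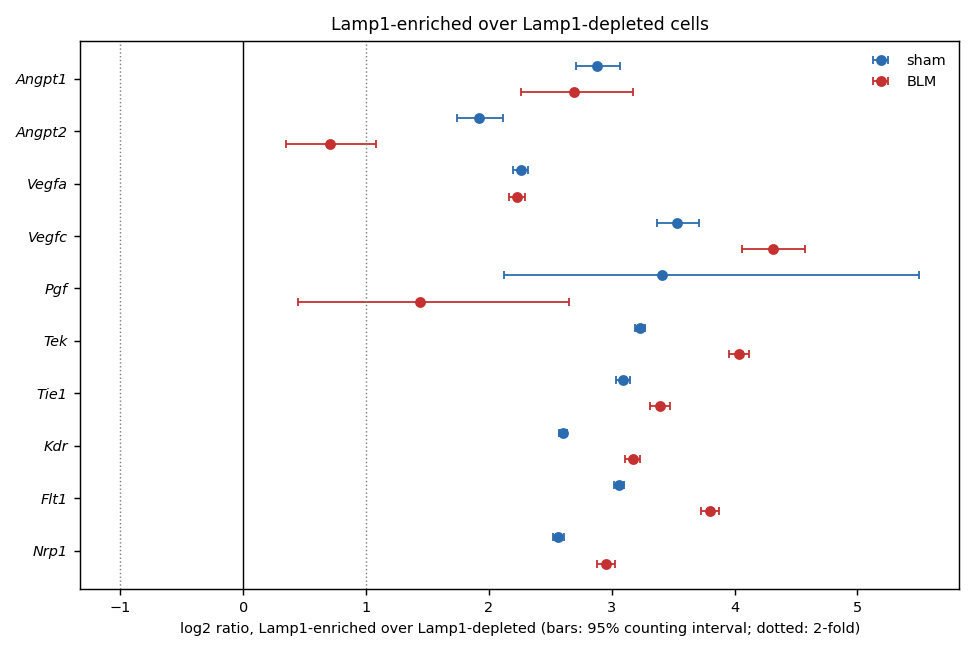
Log2 ratio of Lamp1-enriched over Lamp1-depleted cells for each gene in sham (blue) and BLM (red) libraries, with bars for the 95% counting interval and dotted lines at 2-fold. All points lie right of 0, and only Angpt2 in BLM cells lies inside the 2-fold line.

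Enriched cells differed less from unsorted than from depleted cells. In sham mice 1 of 10 genes, Vegfc at 2.18-fold, was higher past 2-fold and 0 were lower, beside 2.55% and 15.8% of 22323 genes. In BLM mice 5 of 10 were higher, namely Vegfc (3.43-fold), Tek (3.02-fold), Tie1 (2.57-fold), Flt1 (2.48-fold) and Vegfa (2.03-fold), and 0 lower, beside 12.6% and 19.1% of 22149 genes. The unsorted level lay between those of the sorted fractions for 10 of 10 genes in sham and 9 of 10 in BLM mice, with Pgf above both. The share of all genes with such a position was not counted, so nothing is read from these numbers. In BLM cells Lamp1 RNA (501 CPM unsorted against 111 depleted and 378 enriched) and the summed macrophage genes (3029 against 350 and 372) also lay above both fractions.

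Read ratios within a library compare the VEGF receptors with each other without any scaling. The ratio of Flt1 to Kdr reads was 0.604 in unsorted, 0.546 in depleted and 0.751 in enriched sham cells, and 0.877, 0.729 and 1.13 in BLM cells. It was higher after BLM in all 3 fractions, in enriched cells with intervals of 0.742 to 0.760 in sham and 1.11 to 1.14 in BLM cells. These reads are not divided by gene length, so a ratio of 1 does not mark equal levels. Per kilobase of exon, Kdr stayed above Flt1 in enriched cells, at 145 against 72.7 CPM in sham and 101 against 76.0 CPM in BLM cells. Vegfa to Kdr was 0.266 in unsorted, 0.273 in depleted and 0.216 in enriched sham cells, and 0.490, 0.986 and 0.515 in BLM cells, again higher in each BLM library. Nrp1 to Kdr was 0.473 in unsorted, 0.516 in depleted and 0.503 in enriched sham cells, and 0.680, 0.722 and 0.621 in BLM cells. These ratios share Kdr as denominator and so move together with it. Per unit of the summed aerocyte genes, a capillary type described below, the Kdr log2 ratio of BLM over sham was -0.0014, -0.81 and -0.053. On that scale Flt1 was at 0.54, -0.40 and 0.53, all in the order unsorted, depleted and enriched. Per unit of the general endothelial genes Kdr was at -0.15, -0.49 and -0.36. The part of these cell types was not tested. Tek to Tie1 was 1.68 in unsorted, 1.76 in depleted and 1.94 in enriched sham cells, and 1.39, 1.05 and 1.63 in BLM cells, lower in each BLM library.

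**Figure D4:**
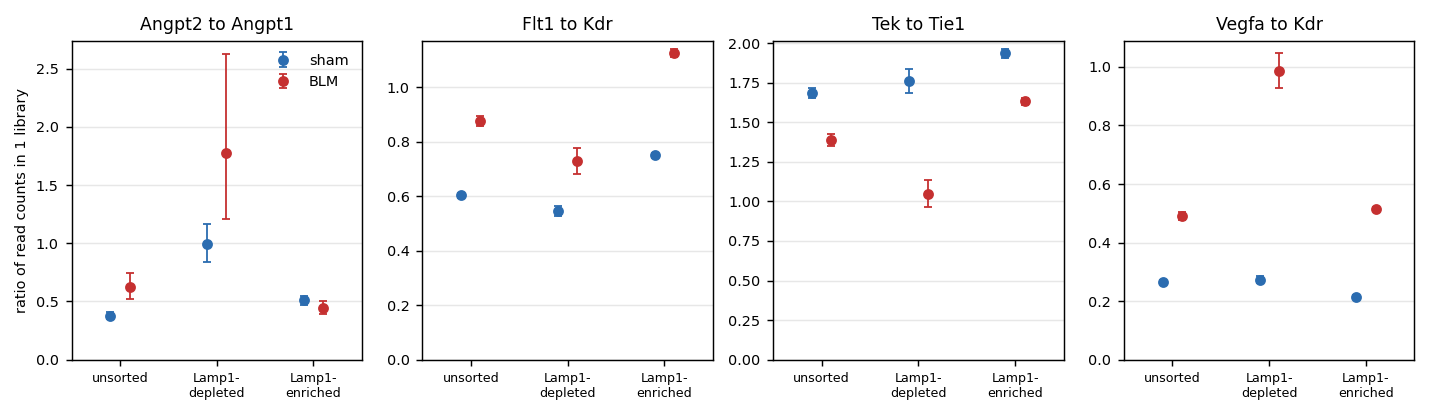
Ratios of read counts of gene pairs within 1 library, from an axis starting at 0, with sham in blue, BLM in red and bars for the 95% counting interval. Flt1 to Kdr and Vegfa to Kdr were higher, and Tek to Tie1 lower, in BLM than in sham cells of all 3 fractions, while Angpt2 to Angpt1 was higher in unsorted and depleted BLM cells only.

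Markers of cell types moved in the same libraries. The summed level of 15 general endothelial genes was 6476, 1400 and 10851 in sham and 3441, 923 and 9688 in BLM libraries, in CPM and in the order unsorted, depleted and enriched, with none of the 15 at 0. Their median BLM over sham ratios were -1.05, -0.46 and 0.056 in unsorted, depleted and enriched cells (Pecam1 -0.59, -0.23 and 0.074, Cdh5 -0.52, -0.59 and 0.16). Per unit of this endothelial sum, the Tek ratio of BLM over sham was -0.065, -0.39 and -0.024 in the same order, that of Kdr -0.15, -0.49 and -0.36, of Flt1 0.39, -0.071 and 0.23, of Tie1 0.21, 0.36 and 0.22 and of Nrp1 0.37, -0.0013 and -0.053. In depleted cells Pecam1 alone held 28.6% of this list's reads in sham and 36.9% in BLM libraries, so the depleted values lean on that gene. The list without Pecam1 was computed for Angpt1 only, whose depleted value moved from -1.05 to -0.88. Beside the endothelial sum, Tek in unsorted and enriched cells thus differed by under 0.1 on the log2 scale. Angpt1 was lower on this scale too, at -1.39, -1.05 and -1.68, and Angpt2 was -0.66, -0.21 and -1.87. Vegfa was higher on it in all 3 fractions, at 0.73, 1.36 and 0.90, as was Vegfc, at 0.87, 0.44 and 0.78. In unsorted cells Vegfa itself was at -0.18, and the endothelial sum was lower after BLM. Per unit of the summed alveolar type 1 genes Vegfa was at 0.99, 0.21 and 1.59. Per unit of the summed macrophage genes it was at -2.79, 0.45 and -0.64, so that its sign depends on the list. The part of these cell types in Vegfa was not tested.

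Lists of other cell types known to make Angpt1 were set beside it, a choice made after values were seen. The 8 pericyte genes summed to 357, 49.3 and 407 in sham and 172, 39.0 and 163 in BLM libraries (CPM), with median ratios of -1.85, -0.59 and -1.31 (Cspg4 2.15, 1.42 and -0.21, Pdgfrb -1.37, -0.63 and -1.23). The 7 platelet and megakaryocyte genes summed to 315, 42.2 and 1039 in sham and 56.4, 13.2 and 152 in BLM libraries, with medians of -2.14, -1.62 and -2.76 (Pf4 -2.15, 0.018 and -2.76, Ppbp -2.82, -2.85 and -2.97), and Treml1 was at 0 in BLM depleted cells. Genes lower after BLM past 2-fold numbered 7 of 8 pericyte and 7 of 7 platelet genes in unsorted cells, 0 of 8 and 4 of 7 in depleted cells and 5 of 8 and 7 of 7 in enriched cells. Of all genes, 16.0%, 22.3% and 7.81% were lower past 2-fold in these fractions, in the same order.

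Set against the sums of these lists, the Angpt1 ratio depended on single genes. Per unit of the pericyte sum it was -1.24, -1.32 and -0.52 in unsorted, depleted and enriched cells. Cspg4, also higher in the BLM unsorted library, took 42.1% of the list's reads there against 4.54% in sham, and without it the values were -0.52, -1.09 and -0.44. The lowest values with 1 pericyte gene left out were -1.47, -1.44 and -0.59. Per unit of the platelet sum the Angpt1 ratio was 0.19, 0.022 and 0.93. Ppbp held 65.3% of that list's reads in sham unsorted cells, and without it the values were -0.29, -0.98 and 0.60, so that the sign in unsorted and depleted cells rests on 1 gene. Without Itga2b instead, the values were 0.31, 0.64 and 1.02. The 10 fibroblast genes had median ratios of -0.67, -1.12 and -0.21, with the collagens Col1a1 (2.17, 2.39 and 3.24) and Col1a2 (1.41, 1.86 and 2.33) higher after BLM. Per unit of the fibroblast sum the Angpt1 ratio was -2.36, -2.23 and -2.90, but these 2 collagens held 76.7% of the list's reads in BLM and 21.7% in sham unsorted cells, and over the other 8 genes it was -0.61, -0.88 and -0.92. Without Inmt alone the Angpt1 ratio was -2.88, -2.57 and -3.35. Per unit of the endothelial sum it ran from -1.45 to -1.26 in unsorted, -1.12 to -0.88 in depleted and -1.74 to -1.57 in enriched cells with 1 gene of that list left out at a time. The part of these cell types in the Angpt1 values was not tested.

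**Figure D5:**
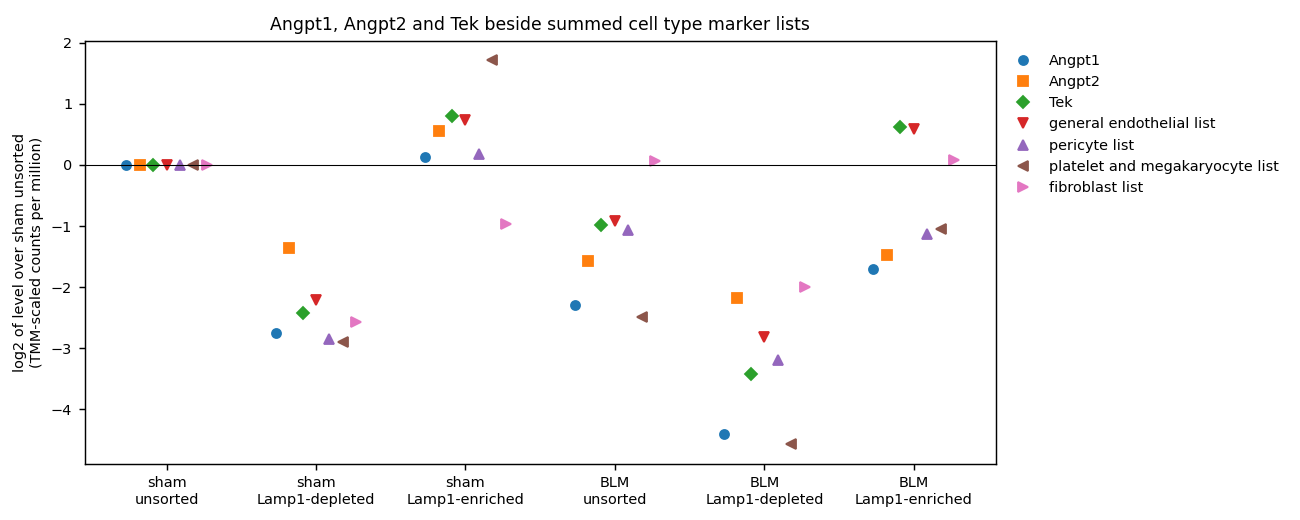
Log2 level of Angpt1, Angpt2, Tek and of 4 summed marker lists in each library, relative to sham unsorted cells. Tek was farthest from the endothelial list in BLM Lamp1-depleted cells, where Pecam1 alone held 36.9% of that list's reads. In BLM unsorted cells Angpt1 and the platelet list were the lowest of the 7.

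The remaining marker lists describe the cells that the libraries held. Median BLM over sham ratios in unsorted, depleted and enriched cells were -1.07, -1.10 and -0.12 for 6 general capillary genes (Gpihbp1 -1.30, -0.034 and -0.10, Aplnr -0.51, -0.93 and 0.20) and -1.44, -0.81 and -0.94 for 6 aerocyte genes, the gas exchange capillary type (Car4 -0.55, -0.40 and -0.82, Ednrb -1.77, -2.19 and -1.27). For 4 lymphatic endothelial genes they were -0.092, -0.54 and 0.15, with Prox1 at 1.33, 1.97 and 0.66 and Mmrn1 at -1.09, -0.79 and -2.32. For 6 smooth muscle genes they were -0.38, 0.14 and 0.62 (Acta2 0.26, 0.90 and 1.34, Myh11 -1.43, -0.017 and -0.50), with Cnn1 at 0 in BLM depleted cells. For 6 alveolar type 1 genes they were -0.94, 0.87 and -0.77 (Ager -0.50, 1.66 and 0.093, Hopx -2.15, -0.27 and -1.61) and for 7 alveolar type 2 genes -1.98, -1.42 and -1.35 (Sftpc -2.98, -1.90 and -2.49, Sftpb -1.29, -0.35 and -1.18). Macrophage genes had the highest median of the 14 marker lists in unsorted cells, with values of 2.79, 0.43 and 1.55 over 8 genes (Cd68 3.46, 0.0094 and 1.84, Marco 3.65, 2.13 and 2.11). Neutrophil genes had 0.12, 2.85 and 0.87 over 5 genes (S100a8 0.12, 3.26 and 0.46, S100a9 0.046, 2.46 and 0.87), T cell genes -0.054, -0.42 and -0.67 over 6 (Cd3e -0.24, -1.13 and -0.87, Cd3d -0.35, -0.53 and -1.27) and B cell genes -1.44, -2.55 and -1.71 over 5 (Cd79a -1.44, -2.55 and -1.71, Cd79b -1.92, -2.98 and -2.23). Their part in the values of the 10 genes was not tested.

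Among 7 other ligands, receptors and phosphatase genes of the pathway, Nrp2 was higher after BLM in all 3 fractions. Nrp2, the co-receptor for Vegfc and semaphorins, had 11892 reads against 2298 in unsorted BLM and sham cells (log2 2.67), and its ratios were 1.60 in depleted and 1.53 in enriched cells. The macrophage genes had medians of 2.79, 0.43 and 1.55 in unsorted, depleted and enriched cells, and their part in the Nrp2 values was not tested. Ptprb, the phosphatase that restrains Tek, was at -1.11 in unsorted and -1.27 in depleted cells. Vegfd, a lymphatic ligand, was at -1.40 in unsorted and -0.76 in enriched cells. Plxnd1, a semaphorin receptor, was at 0.92 in depleted and 0.32 in enriched cells. Of the 7, 1 was past 2-fold higher and 2 lower in unsorted cells, 2 higher and 1 lower in depleted cells, and 1 higher and 0 lower in enriched cells. Over all genes, 13.9% were higher and 16.0% lower in unsorted, 13.7% and 22.3% in depleted, and 10.2% and 7.81% in enriched cells, the shares against which the counts of this and the following lists are to be read.

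Of 20 signal relay and response genes, 1 was higher and 3 lower in unsorted cells, 3 higher and 3 lower in depleted cells, and 2 higher and 2 lower in enriched cells, with medians of -0.0015, 0.26 and -0.013. The 3 of 20 lower in unsorted cells are near the 16.0% of all genes. Dok2, an adaptor that binds active Tek and is also abundant in blood cells, had the highest ratio of those that reached 50 reads, 3.58 in unsorted, 1.29 in depleted and 1.57 in enriched cells. The tip cell genes Apln, which is also in the aerocyte list, and Dll4 were at -1.56 and -1.22 in unsorted cells. Dll4 was at -1.34 in depleted cells. In enriched cells Esm1, a VEGF-induced tip cell gene, was at -1.93 (154 reads against 497), whereas Nos3, the endothelial nitric oxide synthase, was at 1.25 (3823 reads against 1360). Cited2, a brake on hypoxia signalling, was at -1.65 in depleted cells. Genes downstream of the same receptors thus lay on both sides of 0.

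Of 14 inhibitors, modulators and hypoxia regulators, 1 was higher and 1 lower in unsorted cells, 1 higher and 0 lower in depleted cells, and 3 higher and 0 lower in enriched cells (10.2% and 7.81% of all genes there), with medians of -0.0065, -0.14 and -0.088. Hif1a, which activates Vegfa in low oxygen, was at 1.47 in unsorted and 1.30 in enriched cells, while Epas1 (HIF-2 alpha), the form typical of endothelium, was at -1.31 in unsorted and -0.88 in depleted cells. They lay on opposite sides of 0 in unsorted and enriched cells, where Epas1 was at -0.65, and on the same side in depleted cells, where Hif1a was at -0.50. Spry4, an inhibitor of receptor tyrosine kinase signalling, was at 1.35 in enriched cells (10877 reads against 3590), and Egln3, an oxygen sensor, was at 1.19 there on 52 reads against 19. Spry1 was at -0.50 in unsorted cells. In depleted cells Thbs1 and Vash1, both inhibitors of vessel growth, were at 1.03 and 0.91.

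The genes that rose and fell most like the ligands over the 6 libraries were found by Pearson's r of log2 CPM. They were sought among 11401 genes with a mean of at least 5 CPM. This r compares the shape of a profile and not its level or the size of its differences. With only 6 libraries, all shared between the genes and dominated by the sorted fractions, high values are common and describe the profile only. For Angpt1 they were Kif26b (r = 0.998), Dpysl5, Zfp697, Arhgap42 and Gpm6b. Kif26b was at 56.9 CPM in unsorted, 7.06 in depleted and 76.0 in enriched sham cells and 8.47, 1.33 and 14.4 CPM in BLM cells, close to the levels of Angpt1. For Angpt2 they were Lpcat1 (r = 0.990), Lipg, S1pr3, Wbp1 and Adcy8. Lpcat1 ran only from 64.5 to 124 CPM, whereas Angpt2 ran from 3.69 to 24.6 CPM. Vegfa was most like Srgap1 (r = 0.999), Arhgef25, Galnt18, A430105I19Rik and Plcb1. Vegfc was most like Mmrn2 (r = 0.999), an endothelial matrix protein, then Arl15, Ntn1, Tmem2 and Tnfaip1. Pgf was most like Itsn1 (r = 0.998), Gab2, Flrt3, Mink1 and Rtn2. Within the set, Angpt1 and Angpt2 had r = 0.935 with each other, and Angpt1 and Kdr 0.940.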

How the data were processed

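PolyA RNA of 6 lung cell libraries, 1 per condition, was sequenced, and samples were grouped by their labels. The table the authors deposited holds raw counts of reads for each gene, not normalized. The submitters' processing notes name Trimmomatic 0.36, STAR 2.5.2b, featureCounts in Subread 1.5.2, DESeq2 and GRCm38, while the annotation and strand setting are not given in the sources used here. Total counts ran from 30236120 to 52918696 per library. Of 49315 genes, 48970 were found by identifier in GENCODE M21. For 174 rows the gene name was blank but an Ensembl identifier was given, and they were kept.

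TMM factors over the 6 libraries came from edgeR 4.0.16 in R 4.3.3. Log2 ratios used a prior of 0.5 reads, scaled by depth, and genes needed 10 reads or more in either library compared. Genes with a log2 ratio of at least 1 or at most -1 were past 2-fold. Intervals are 95% Clopper-Pearson intervals of the share of reads (scipy 1.17.1, Python 3.11.15) and cover counting error only. Their calculation was checked on simulated counts that held counting error only, with the scaling known. That check says nothing about variation between mice or libraries or about error in the scaling. With 1 library per condition no test across genes was made and no replicate could be left out. No column of the table was left without a sample.

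The 10 genes, the 3 pathway lists and the 14 marker lists (general endothelial, general capillary, aerocyte, lymphatic endothelial, fibroblast, pericyte, smooth muscle, alveolar type 1, alveolar type 2, platelet and megakaryocyte, macrophage, neutrophil, T cell, B cell) were chosen from general knowledge with earlier results of these data known. Siglecf was matched through a RefSeq synonym, and Ccl21a, which matched more than 1 identifier, was not used. Ptprb, Apln and Flt4 are in both kinds of list. Of each pathway list the text names the 3 genes with the largest absolute log2 ratio among those that reached 50 reads, in each BLM over sham comparison, of each marker list the first 2 genes, and for 5 ligands the 5 genes with the highest Pearson correlation. Further values of Hif1a and Epas1 were added after they were seen. Promoter windows are RefSeq GRCm38.p6.

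Alternatives were DESeq2 1.42.0 size factors, scaling by total counts only, a prior of 2 reads, minimums of 1 and 50 reads, a log2 ratio of at least 2, TMM factors without the BLM Lamp1-depleted library, and counts thinned to the smallest total. Leaving genes out of marker lists was added after seeing the data.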

Additional observations from a re-analysis of the deposited data

Results flagged for a closer look

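For 3 genes the BLM over sham log2 ratio had opposite signs in different cell fractions, and the difference between fractions was not tested. Tie1 was at -0.70 in unsorted and -0.24 in Lamp1-depleted cells but 0.058 in Lamp1-enriched cells. Flt1 was at -0.52 and -0.67 in unsorted and depleted cells and 0.064 in enriched cells. For both, the enriched value is close to 0. Vegfa was at -0.18 in unsorted cells but 0.76 in depleted and 0.73 in enriched cells, so that both sorted fractions were higher after BLM while the unsorted suspension was not. The depleted value was 0.041 with total counts only. Each value compares 1 library with 1 library. The unsorted libraries were not only a mix of both sorted fractions. Summed macrophage genes were at 3029 CPM in BLM unsorted cells against 350 in depleted and 372 in enriched BLM cells. In sham cells they were at 494 against 283 and 143 CPM. The part of such cells in the unsorted Vegfa value was not tested.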

How the results depend on the processing

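Of 723 values recomputed under the other settings, 623 moved by less than their counting interval or, for counts, by less than 1.5 times, 100 moved by more, and 0 past 2-fold changed sign. Single genes made up 452 of the first and 79 of the second, and 3 ratios near 0, of Lamp1-enriched over unsorted sham cells, changed sign with total counts only: Angpt1 from 0.13 to -0.09, Vegfa from 0.11 to -0.12 and Pgf from 0.20 to -0.02. Total counts only shifted the median of all genes by -0.26 in BLM over sham unsorted, -0.72 in depleted, -0.17 and 0.55 in enriched over depleted sham and BLM, and -0.22 in enriched over unsorted sham cells, and in enriched over depleted BLM cells DESeq2 size factors shifted it by -0.15 and thinning by -0.11 (DESeq2 by 0.15 in BLM over sham depleted cells). For BLM over sham unsorted, the count of genes higher became 0 (Pgf lost) with total counts only and at 4-fold, the count lower became 1 at 4-fold, and the median of the 10 genes became -0.88 with total counts only and -0.70 with TMM factors without the BLM depleted library. Of all genes there, 10.7% were higher with total counts only, and 4.96% higher and 4.99% lower at 4-fold. In depleted cells the count lower became 1 with DESeq2 (Kdr lost), 6 with total counts only and 0 at 4-fold, the count higher became 1 at a minimum of 1 read (Pgf), and the median became -1.39 with total counts only. Of all genes there, 18.8%, 46.85% and 7.71% were lower under these settings in turn, and 23.3% higher at a minimum of 1 read. In enriched cells the count lower became 1 at 4-fold, beside 2.05% of all genes. For enriched over depleted BLM cells the median became 2.91 with DESeq2, 3.62 with total counts only and 2.99 with thinned counts. For enriched over unsorted cells the count higher became 0 in sham with total counts only and at 4-fold and 0 in BLM at 4-fold, and the median became 0.31 in sham and 1.04 in BLM with total counts only and 1.06 in BLM with TMM factors without the BLM depleted library. Of all genes, 1.70% and 0.43% were higher under these sham settings in turn, and 2.34% in BLM at 4-fold. Leaving marker genes out of the lists set beside Angpt1, added after seeing the data, moved 21 of 123 further values beyond the counting interval of Angpt1. Ratios within a library do not depend on scaling. Depth limits Pgf (4 to 81 reads) and Angpt1 and Angpt2 in BLM depleted cells (44 and 78 reads). With 1 library per condition the spread between mice is unknown.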
